A study of Mus musculus with 2 samples.

Results

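CTCF binding was mapped around the apolipoprotein genes Apoe, Apoc1, Apoc4 and Apoc2, which lie side by side on mouse chromosome 7. The region runs from 50 kb below the lowest end to 50 kb above the highest end of the 4 genes, chr7:19621579-19749188 on build mm10 (127.61 kb), with genes taken from GENCODE annotation vM21. The authors thresholded peaks by the irreproducible discovery rate (IDR), a measure of how well peaks hold their rank between replicates. The longer list is named optimal and the shorter one conservative. Neither contains the other, as 6939 optimal and 5159 conservative peaks had no summit of the other list within 100 bp. A place in the optimal list alone does not show that a peak held its rank between the 2 replicates. Of the 50909 peaks in the optimal list, 13 had their summit inside the region, and these are called P1 to P13 in order along the chromosome. They were chosen by position alone, without regard to their signal.

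The study consists of chromatin immunoprecipitation with sequencing (ChIP-seq) with an antibody to CTCF on liver of B6NCrl mouse embryos at day 14.5 of gestation, with no genotype change or treatment named. There are 2 libraries in 1 group, numbered as biological replicates, but both carry the same biosample, which was a pool of pulverized livers of both sexes from several dissections. The spread between them therefore does not measure differences between animals. Fetal liver holds blood-forming cells beside hepatoblasts, and a pooled tissue gives the sum over its cells; binding data carry no expression, so the tissue label was not checked against marker genes.

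CTCF is a zinc finger protein that binds a long asymmetric DNA motif. It is known for stopping the cohesin ring as it extrudes chromatin loops, most often where the motifs at the loop's ends point towards each other, and for separating enhancers from promoters. Apoe encodes apolipoprotein E, the ligand by which the liver takes up lipoprotein remnants. Apoc2 encodes the cofactor that lipoprotein lipase needs to break down triglycerides, Apoc1 a small apolipoprotein that slows remnant uptake, and Apoc4 a less studied member of the same family. In humans, liver expression of these genes depends on control regions between APOC1 and APOC4.

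All 4 genes are read from the minus strand, so Apoe is the first along transcription and Apoc2 the last. Apoe (ENSMUSG00000002985.16) spans 19696109 to 19699188, Apoc1 (ENSMUSG00000040564.14) 19689481 to 19692660, Apoc4 (ENSMUSG00000074336.5) 19678083 to 19681479 and Apoc2 (ENSMUSG00000002992.17) 19671579 to 19677941. Together they cover a block of 27.61 kb. Downstream of Apoc2 lies Clptm1, which encodes a membrane protein of the endoplasmic reticulum, and beyond it Relb, an NF-kB subunit. Upstream of Apoe lie Tomm40, the channel through which proteins enter mitochondria, and Nectin2, a cell adhesion receptor. The annotation also holds the predicted coding gene Gm44805 across Apoc2 and Apoc4, and the antisense gene Gm20512, which overlaps an end of both Tomm40 and Nectin2, so that 9 of the 10 genes touching the window are protein-coding.

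A core CTCF motif of 14 bases was searched on both strands within 50 bp of each summit. A match with at most 2 mismatches was found at 8 of the 13 peaks, against 70.8% of all placed optimal peaks and 3% of windows moved by 1 kb from the summits. The 8 matches are shown because their strand and their number of mismatches are compared with the signals below. Each line gives 30 bases of the reference genome (RefSeq, GRCm38.p6), 5′ to 3′ on the strand of the match, with the 14 bases of the match in capitals.

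P1, chr7:19665680-19665709, plus strand: tctttatgTCAGCAGAGGGCATcagatcac

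P2, chr7:19666923-19666952, plus strand: cttgaaagCCAGAAGAGGGCGCcaggtccc

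P3, chr7:19669058-19669087, plus strand: tctgctcaCCACTAGGGGGCACccaacacc

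P4, chr7:19669633-19669662, minus strand: tcctgtgtCCCATAGGTGGCACtattggtc

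P5, chr7:19696292-19696321, plus strand: agcaagggCCACCAGAGGGCCAgagaggtg

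P7, chr7:19698271-19698300, plus strand: gtctttgaACACCAGGGGGCGGgggtggag

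P8, chr7:19701251-19701280, minus strand: catggttgCCAGCAGGCGGCGCcgagggtt

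P13, chr7:19740433-19740462, plus strand: tgtacaggCCAGAAGGGGGCGCcaaaagcc

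The match at P3 had no mismatch. Those at P2, P7, P8 and P13 had 1 mismatch and those at P1, P4 and P5 had 2. The other 5 peaks, P6 and P9 to P12, had none with 2 or fewer, which says only that these letters are not within 50 bp of the summit. A match describes a sequence and does not show which base CTCF contacts.

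The peaks of the window lay in 3 groups: 4 between Clptm1 and Apoc2, 3 inside Apoe, and 6 upstream of Apoe. No optimal peak lay inside Apoc1, Apoc4 or Apoc2. The longest stretch between neighbouring peaks, 26695 bp from P4 to P5, holds all 3 Apoc genes. Longer stretches are common, as 34.4% of the 50868 gaps between neighbouring optimal peaks in the genome exceeded it, while the median gap was 1916 bp in the window and 14781 bp genome-wide.

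**Figure D1:**
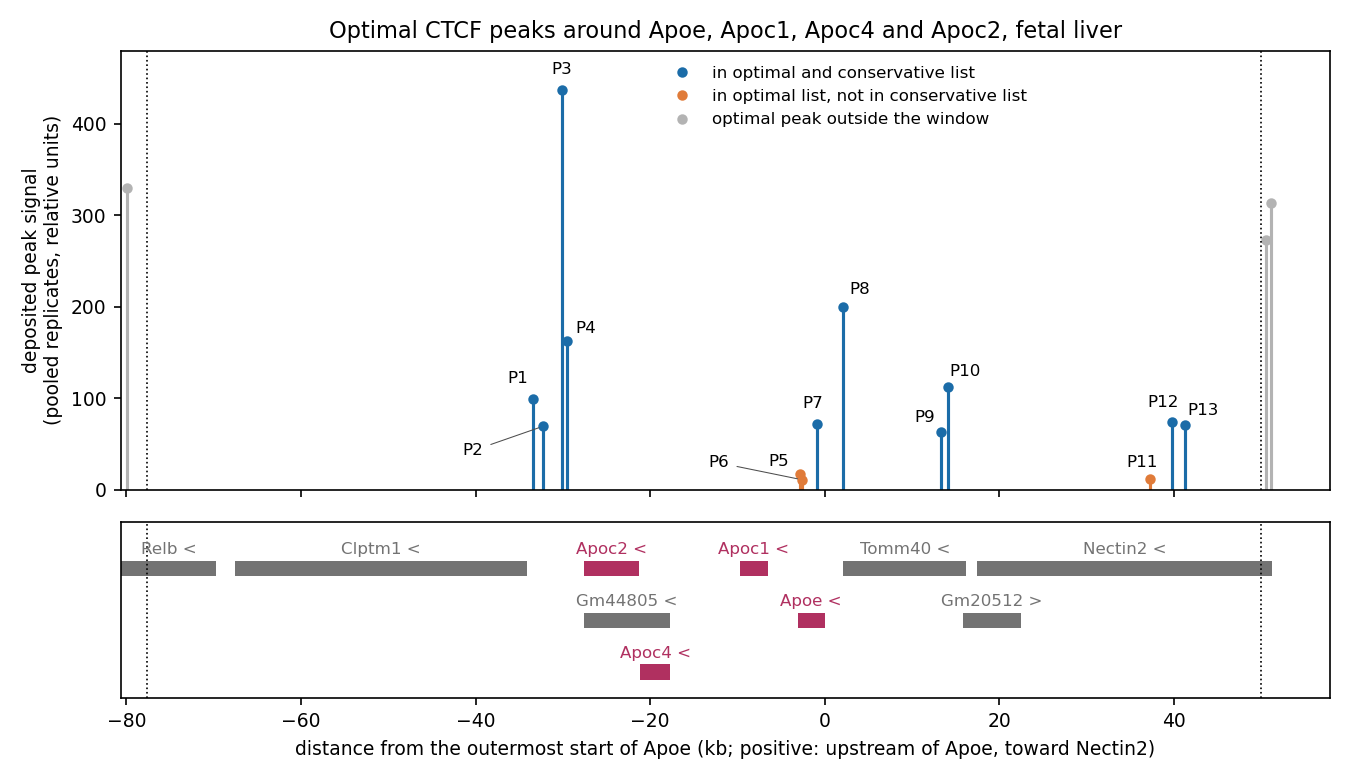
Signal of the optimal CTCF peaks (upper panel, the caller's pooled signal in relative units) by distance from the outermost start of Apoe in kb, with the genes below and a < or > sign for the direction of transcription. Dotted lines mark the window; 4 peaks stand between Clptm1 and Apoc2, with P3 at 437, and 3 low to middling ones stand in Apoe, while Apoc1, Apoc4 and Apoc2 hold none.

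Occupancy was measured in a pair of ways. The deposited signal comes from both replicates pooled, and its scale is relative and not described. For the replicate error, each replicate was searched for a peak of its own whose summit lay within 100 bp of the optimal one. Its signal over the median of the 50909 strongest peaks in that replicate is called the relative signal, so that 1 is a peak of middle strength. The read depth is unknown, as the peak lists give no read counts.

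The highest signal of the window lay on the Apoc2 side. P3, at chr7:19668917-19669212, stood in intergenic sequence 2511 bp beyond the 3′ end of Apoc2 and 4035 bp upstream of the start of Clptm1. Its signal of 437 ranked 1197 in the optimal list, above 97.6% of the peaks. Its relative signal was 7.42 in replicate 1 and 5.77 in replicate 2 (6.60 ± 1.17, SD, n = 2), and both values stood above every other value of the window. P3 also carried the one motif match without mismatch, and no base within 100 bp of its summit was masked as repeat. The whole peak is printed because it is the strongest site of the window, with the match in capitals.

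P3, chr7:19668917-19669212, plus strand: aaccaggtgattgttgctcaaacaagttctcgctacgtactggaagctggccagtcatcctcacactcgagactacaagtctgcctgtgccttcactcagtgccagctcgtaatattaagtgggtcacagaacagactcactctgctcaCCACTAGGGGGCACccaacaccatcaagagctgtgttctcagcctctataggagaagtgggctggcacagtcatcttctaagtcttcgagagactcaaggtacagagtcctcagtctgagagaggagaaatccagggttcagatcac

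P4, at chr7:19669536-19669743, is the peak nearest to the gene block on this side, 1933 bp from the 3′ end of Apoc2 and 578 bp from P3. Its signal was 162, above 75.0% of the optimal peaks. The relative signal was 2.07 in replicate 1 and 2.74 in replicate 2 (2.40 ± 0.473, SD, n = 2), below both values of P3. The matches of P3 and P4 pointed towards each other, P3 on the plus and P4 on the minus strand.

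P1, at chr7:19665570-19665885, lay 695 bp upstream of the start of Clptm1 and so counted as a promoter peak. It had a signal of 98.9, and its relative signal was 1.60 in replicate 1 and 1.34 in replicate 2 (1.47 ± 0.183, SD, n = 2). P2, at chr7:19666779-19667094, stood between P1 and P3 with a signal of 69.6, and its relative signal was 1.07 in replicate 1 and 1.05 in replicate 2. Both lay mostly in repeats, with 67.2% of the bases around P1 and 61.2% around P2 masked. The 4 peaks between Clptm1 and Apoc2 therefore had P3 highest, then P4, then P1, then P2. In this order, the values of both replicates did not overlap between any of these neighbours. With 2 libraries of 1 pool this only describes the values, and the order was not tested.

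Inside the gene block, the peak of highest signal lay near the 5′ end of Apoe. P7, at chr7:19698106-19698421, had its summit 3 bp from an internal transcript start of Apoe, in an exon that is 5′ UTR in 3 Apoe transcripts. Its signal of 71.8 was the median of the window, close to the middle of the optimal list, 51.9% of whose peaks were lower. The ratio between the replicates was the largest among the peaks of the window found in both: the relative signal was 1.55 in replicate 1 and 0.643 in replicate 2 (1.09 ± 0.639, SD, n = 2), ranks of 19126 and 32429 in their lists.

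The other 2 peaks in Apoe were near the bottom of the list and lay at the 3′ end of the gene, 222 bp apart. P5, at chr7:19696183-19696498, had its summit in the 3′ UTR and a signal of 17.1, with only 5.25% of the optimal peaks lower. Its relative signal was 0.315 in replicate 1 and 0.147 in replicate 2 (0.231 ± 0.119, SD, n = 2). P6, at chr7:19696405-19696720, had its summit in the coding part of the last exon and a signal of 11.2, with 1.34% of the peaks lower. Replicate 1 had a relative signal of 0.326 there, and replicate 2 had no summit within 100 bp, its nearest being 126 bp away at 0.118. The bases around P6 were 62.2% G or C and held 12 CpG, both the highest values of the window.

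The block thus held 3 optimal peaks, but only P7 was among the 50909 strongest peaks of either replicate, and it was in both. P5 and P6 were also missing from the conservative list. That list held nearby a peak at chr7:19695769-19696084, whose summit at 19695927 was just beyond the 3′ end of Apoe at 19696109, with a signal of 17.3. Its relative signal was 0.252 in replicate 1 and 0.240 in replicate 2.

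Upstream of Apoe, the highest signal was that of P8. At chr7:19701134-19701355, its summit lay in intergenic sequence, 2065 bp upstream of the start of Apoe and just beyond the 3′ end of Tomm40. It is the peak nearest to the gene block on this side. Its signal of 200 was above 80.3% of the optimal peaks and the second highest of the window. The relative signal was 3.90 in replicate 1 and 2.07 in replicate 2 (2.98 ± 1.30, SD, n = 2), which overlapped the values of P4 and stayed below those of P3. The matches of P7 and P8, 2989 bp apart on either side of the outermost Apoe start, pointed towards each other. The part of P8 outside Tomm40 is printed because it is the strongest site next to Apoe; the capitals mark the match, here read as its reverse complement on the plus strand.

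P8, chr7:19701134-19701312, plus strand: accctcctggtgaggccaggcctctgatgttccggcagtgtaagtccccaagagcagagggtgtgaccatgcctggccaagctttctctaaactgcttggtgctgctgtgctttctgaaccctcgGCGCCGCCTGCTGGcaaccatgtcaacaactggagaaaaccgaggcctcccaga

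P10, at chr7:19713273-19713429 in Tomm40, had a signal of 113, and its relative signal was 2.00 in replicate 1 and 1.49 in replicate 2 (1.74 ± 0.356, SD, n = 2). P9 lay next to it, with a signal of 63.4, and its relative signal was 0.936 in replicate 1 and 0.963 in replicate 2. Both summits fell in an exon of a noncoding Tomm40 transcript and in an intron of the full-length ones, outside the shorter transcripts. Neither had a motif match with at most 2 mismatches within 50 bp, but P9 had one within 100 bp. The sequence around P9 was 81.6% repeat, the highest share of the window.

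The last 3 peaks lay in introns of Nectin2. P12, at chr7:19738812-19739127, had a signal of 74.4, and its relative signal was 0.795 in replicate 1 and 1.34 in replicate 2 (1.07 ± 0.385, SD, n = 2), the lowest ratio of replicate 1 to replicate 2 in the window. P13 had a signal of 70.6, and its relative signal was 1.17 in replicate 1 and 0.907 in replicate 2. P11 was among the weakest of the window, with a signal of 11.7. Its relative signal was 0.167 in replicate 1 and 0.105 in replicate 2, ranks of 125552 and 167214 in their lists. It was the third peak missing from the conservative list. The values of P12 and P13 overlapped, and those of P11 lay below both.

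**Figure D2:**
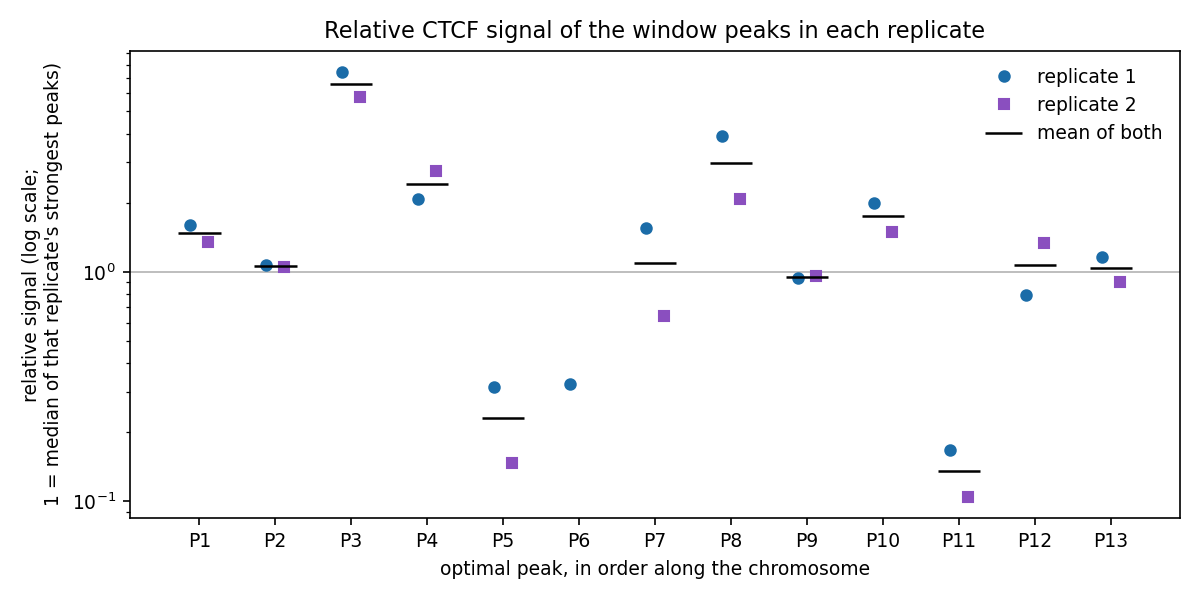
Relative signal of each of the 13 peaks in replicate 1 (circles) and replicate 2 (squares) on a log scale, with a bar for their mean; 1 is the median of the strongest peaks in the same replicate. P3 stands at 7.42 and 5.77 above all others, P5, P6 and P11 stand lowest, and P6 has no value in replicate 2.

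Replicate 1 was the higher at 9 of the 12 peaks found in both replicates, against 63.6% of all optimal peaks found in both. The ratio of replicate 1 to replicate 2 ran from 0.594 at P12 to 2.40 at P7, with a median of 1.29. Over all 47605 optimal peaks with a value in both replicates the median ratio was 1.23, and the middle 90% lay between 0.354 and 2.69, so all 12 peaks of the window with a ratio were inside that range.

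Support from the other lists was as follows. A conservative summit lay within 100 bp of 10 of the 13 peaks, against 86.4% of all optimal peaks. Summits of both replicates' full lists lay within 100 bp of 12 of 13, against 93.5%, and summits of both replicates' strongest peaks lay near 10 of 13, against 76.7%. The same 10 peaks had the deposited top score of 1000, against 79.4% of all optimal peaks. The 3 peaks without conservative support, P5, P6 and P11, were also those with the lowest signal, and genome-wide the 6939 optimal peaks without conservative support had a median signal of 20.4, against 84.4 for the 43970 with it.

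In signal and sequence the 13 peaks were close to the whole list. Their median signal was 71.8, against 68.0 for all placed optimal peaks, and 9 of the 13 were above the median of the list. The median GC content within 100 bp of the summit was 50.7%, against 50.2% for all. More than 50% of these bases were repeat at 3 of the 13 peaks, P1, P2 and P9, against 19.3% of all. Genome-wide, the median signal was 195 for peaks whose best match had 0 mismatches, 102 for 1 mismatch, 62.2 for 2 mismatches and 35.6 without a match. Single peaks of the window did not all follow the order of these medians. P1 and P4 with 2 mismatches, and P10 and P12 without a match, were all above P2, P7 and P13 with 1 mismatch. Single peaks also depart from it genome-wide, where the highest signal without a match was 658.

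The 8 matched peaks form 7 neighbouring pairs. The matches of 2 pairs pointed towards each other, P3 with P4 and P7 with P8, against 24.5% of 36000 such pairs genome-wide. Another 2 pairs pointed away from each other, P4 with P5 across the Apoc genes and P8 with P13, also against 24.5%. In the remaining 3 pairs both matches were on the plus strand, against 51% of pairs on the same strand genome-wide. With 7 pairs these counts only describe the order of the matches. Within 25 bp of the summit, P1, P5 and P7 had no match with at most 2 mismatches. The pairs that include them, such as P7 with P8 and P4 with P5, therefore depend on the distance of 50 bp. Whether any of these peaks anchors a loop was not tested.

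A promoter peak, meaning a summit at most 1 kb from any annotated transcript start, was found for 1 of the 4 apolipoprotein genes, Apoe, against 35.5% of 21755 protein-coding genes. Among the peaks, 2 of 13 were at a promoter, P1 at Clptm1 and P7 at Apoe, against 22% of all placed optimal peaks. The nearest optimal summit was 3681 bp from a start of Apoc1, 4274 bp from a start of Apoc2 and 11755 bp from a start of Apoc4. Of the neighbours, Tomm40 had its nearest optimal summit 1583 bp from a start and Relb 9216 bp. Nectin2 had one 152 bp from a start, with a signal of 273, but it lay 537 bp outside the window.

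The window's edge cuts through strong binding. At the Nectin2 start, a second peak 1135 bp outside the window had a signal of 314, and inside Relb a peak 2361 bp outside had a signal of 330. All 3 were above P8 and below P3.

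The list of both replicates pooled, before the IDR threshold, held 55 peaks in the window and 14 in the gene block. Of these, 42 in the window had no optimal summit within 100 bp; their median signal was 7.20 and their highest 21.3. The highest lay at chr7:19720460-19720775 in an intron of Nectin2 that Gm20512 overlaps, with a relative signal of 0.483 in replicate 1 and 0.158 in replicate 2. The next was at chr7:19699500-19699815, 470 bp upstream of the outermost start of Apoe, with a signal of 17.7; it was in the conservative list. There the relative signal was 0.366 in replicate 1 and 0.213 in replicate 2. The third was the conservative peak beyond the 3′ end of Apoe described above.

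At the Apoc genes the pooled list held weak peaks only. The one nearest to a start of Apoc2, 702 bp away at chr7:19674464-19674779, had a signal of 7.71 and ranked 132784 of 300000. The one nearest to a start of Apoc4, 319 bp away at chr7:19680924-19681239, had a signal of 6.45 and ranked 190472. Both had a summit within 100 bp in replicate 1 and none in replicate 2. Apoc1 had no pooled summit within 1 kb of a start, the nearest being 2077 bp away. Weaker binding than the lists reach could not be detected.

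**Figure D3:**
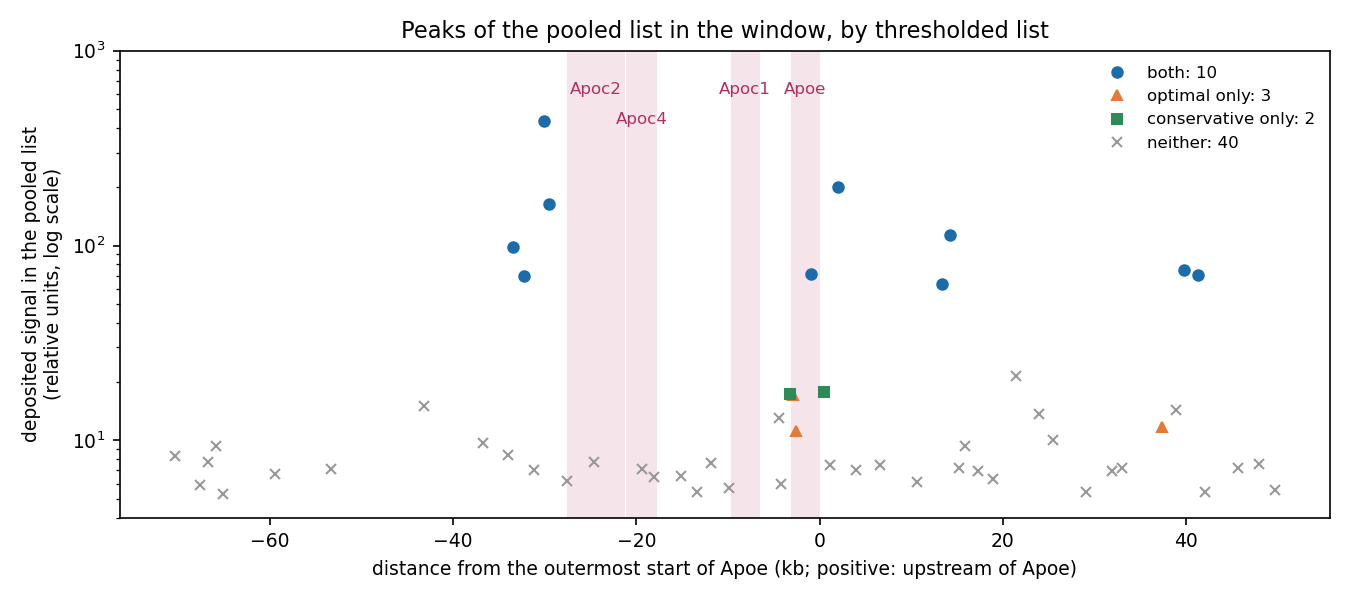
Signal (log scale, relative units) of the 55 peaks of the pooled list in the window by distance from the outermost start of Apoe in kb, marked by the thresholded list that holds them; shaded bands are the 4 apolipoprotein genes. The 10 peaks in both lists have signals of 63.4 or more, the peaks over Apoc4 and Apoc2 are in neither list, Apoc1 holds none, and the 2 peaks in the conservative list only stand at either end of Apoe.

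The window was dense in peaks. Its 13 peaks are 102 per Mb, against 19.9 per Mb over the genome, and the replicates' 50909 strongest peaks gave 12 in replicate 1 and 10 in replicate 2 (11 ± 1.41, SD, n = 2). When the genome was divided into 20077 consecutive stretches of the same length, 97.9% held fewer than 13 optimal peaks, with a median of 1. Among the 11277 stretches that hold a protein-coding gene start, 96.3% held fewer, with a median of 3. Within 20 kb of the block there were 10 peaks, or 148 per Mb, and 99.4% of stretches of that length held fewer. With 100 kb on each side there were 30 peaks, so the dense stretch reached beyond the window. No share of like stretches is given for 100 kb.

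**Figure D4:**
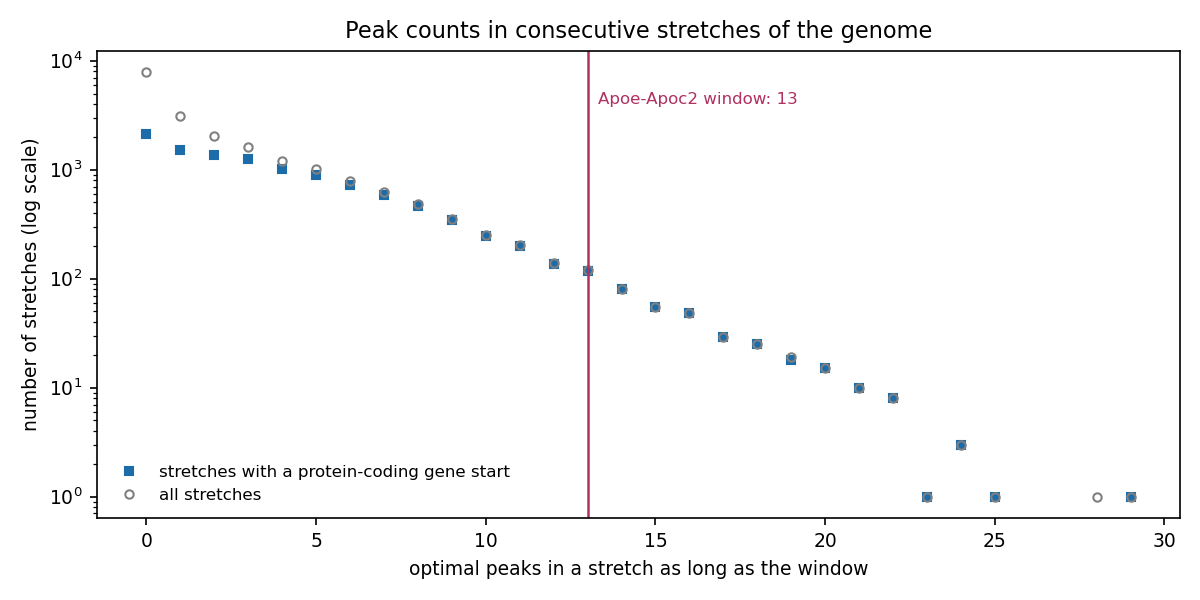
Number of stretches of the genome (log scale) by the number of optimal peaks they hold, for all 20077 stretches of the window's length (open circles) and for the 11277 with a protein-coding gene start (squares). The line marks the 13 peaks around the apolipoprotein genes, a count that 416 stretches reach or pass.

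Another apolipoprotein cluster was alike in its number of peaks. The Apoa1, Apoc3, Apoa4 and Apoa5 genes on chromosome 9, with 50 kb on each side, also held 13 optimal peaks, so that the Apoe window had 102 per Mb and the Apoa1 window 90.7. The replicates' strongest peaks gave 12 and 10 in the Apoe window, and 14 and 14 in the Apoa1 window. The highest signal was 437 in the Apoe window and 450 in the Apoa1 window, and each had 3 peaks in its gene block and 1 gene with a promoter peak. Other values differed. The Apoa1 window had 4 peaks at a promoter against 2 in the Apoe window, where the share of all placed optimal peaks was 22%. Conservative support was found for 12 against 10, beside 86.4% of all optimal peaks. The median signal was 88.1 in the Apoa1 window and 71.8 in the Apoe window. The count was lower, against the 102 per Mb of the Apoe window, at other loci of secreted liver proteins with the same flanks. The window of Alb and Afp, which encode albumin and its fetal counterpart alpha-fetoprotein, held 1 peak, or 6.76 per Mb. The window of Fga, Fgb and Fgg, which encode the fibrinogen chains, held 6, or 42.2 per Mb, none of them in its gene block. The counts of these loci are given side by side and were not tested.

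Of 37 other genes of lipoprotein metabolism and its control, 14 (37.8%) had a promoter peak, close to the 35.5% of all protein-coding genes. Among those with a high promoter signal was Nr1h3, the liver X receptor alpha, whose relative signal was 4.20 ± 1.10 (SD, n = 2). Apob, the structural protein of very low density lipoproteins, stood at 4.15 ± 0.460. Rxra, the partner of many nuclear receptors, followed at 3.32 ± 1.07, and Cebpa, a liver transcription factor, at 2.62 ± 0.825 (SD, n = 2 each). These genes were named for their high promoter signal. Among all 14, the mean relative signal was below the 1.09 of P7 at Apoe in 7, down to 0.252 ± 0.0931 at Pltp, the phospholipid transfer protein, which was named after its value was seen.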

How the data were processed

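CTCF ChIP-seq peaks of 2 libraries from 1 pooled sample of fetal liver were used. Per the labels, the files are on mouse build mm10. The sources used here name no peak caller, aligner or read depth. The authors deposited 1 list of 300000 peaks for each replicate, 1 of 300000 for both pooled, and optimal (50909) and conservative (49129) lists thresholded by IDR. The deposited signal is the caller's value on an unstated scale, so it was compared only within a list. The deposited score of the thresholded lists has 1000 as its top value. The summit is the deposited offset from the peak start.

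Peaks were placed by summit on the mm10 genome and GENCODE vM21 with Python 3.11.15, numpy 2.4.6 and pandas 2.3.3. The 21 optimal peaks outside the assembled chromosomes have no location or motif. Stretches with over 50% assembly gaps were left out. The motif search was tested on simulated data. With 1 group there is no contrast and no test: values are counts, mean ± SD and ranks beside the whole list. Peaks given in full were the 6 of highest signal, those inside the gene block and the nearest on each side; genes named from the lipoprotein list were the 5 of highest promoter signal, less 1 that is not reported here. The genes, lists and rules were chosen with earlier results of these data known. Alternatives were other lists, distances, flanks, motif settings, scales and each replicate alone.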

Additional observations from a re-analysis of the deposited data

How the results depend on the processing

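Under the alternatives, 79 recomputed values stayed within the margin set for them, 20 moved and none changed direction. With a flank of 100 kb in place of 50 kb the window held 30 peaks. The count inside the gene block was 1 with either replicate alone (range 1 to 1) and 1 for optimal peaks above the median signal. Divided by the mean in place of the median signal, relative signals fell to 0.831 at P1, 0.602 at P2, 3.71 at P3, 1.38 at P4, 1.65 at P8, 0.540 at P9, 0.979 at P10, 0.0757 at P11, 0.620 at P12 and 0.583 at P13, a change of scale shared by all peaks. Motif matches numbered 5 with at most 1 mismatch and 5 within 25 bp of the summit. Of the 50888 placed optimal peaks, 5286 had a best match with 0 mismatches and 14915 with 1. No share of all peaks is given for 25 bp, 100 bp or at most 3 mismatches. With a promoter of 500 bp, 1 peak of the window was at a promoter, and with 5 kb these were 10. At 5 kb, 3 of the 4 apolipoprotein genes and 25 of the 37 lipoprotein genes had a peak. The shares of all peaks and all protein-coding genes are given for 1 kb only, so the counts at 500 bp and 5 kb cannot be compared with them. No paired analysis was possible because the replicates form 1 group. Read depth is unknown, so the weakest peaks, P5, P6 and P11, rest on the lists alone.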

Other observations

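A scan of the whole window for the core CTCF motif with at most 1 mismatch found 10 matches on either strand. Of these, 5 lay within 50 bp of an optimal summit, and the same number lay near a summit of the pooled list of 300000 peaks, so the other 5 had no pooled summit within 50 bp. The match without mismatch was the one at P3.

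At Mttp, which loads lipid onto apolipoprotein B, the replicates differed more than at P7: the relative signal of the strongest promoter peak was 0.693 in replicate 1 and 3.08 in replicate 2 (1.89 ± 1.69, SD, n = 2). Mttp was named after its values were seen.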
